A study of Schizosaccharomyces pombe with 29 samples.

Results

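The spliceosome and splicing factor genes of fission yeast are described here across mutants of Rpb1, the RNA polymerase II subunit that bears the C-terminal domain (CTD). Genes were taken by name of product: those whose annotated product contains a word of splicing, a Cwf protein or a U1, U2, U4/U6, U5 or U6 particle, with non-coding RNAs left out. This gave 103 of the 6986 gene IDs counted. They comprise 9 genes of the U1 particle, 12 of U2, 17 of the U4/U6 and U5 particles, 20 of the Prp19 complex and the Cwf proteins, and 39 further splicing factors. The rule also took in 4 subunits of the tRNA splicing endonuclease and 2 genes, mug93 and SPAPB8E5.10, that are annotated as meiotically spliced and are not known as splicing factors.

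The spliceosome removes introns from pre-mRNA and is assembled from small nuclear ribonucleoproteins and the Prp19 complex, which joins as the machine is activated. The CTD is a tail of heptad repeats that carries phosphates during transcription and is a platform for RNA processing factors. Cwf proteins are named for being found in complex with Cdc5, a core protein of the Prp19 complex.

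The study replaced the CTD with repeats of a set design at the rpb1 locus, in h+ cells marked with NatMX unless said otherwise. The control, WT29, has 29 consensus heptads and was sequenced as 2 sets of 3 libraries. Set 1 is the labelled control of Y1F, S2A and the double mutant S2A-S7A, each also of 29 heptads. The labels name a second WT29 control for T4A, ALT-P3A, ALT-S5A, ALT-P6A and WT18, a CTD cut to 18 consensus heptads. Its columns, called set 2 here, were assigned by elimination. The control means in the authors' deposited tables for these 5 alleles were not rebuilt from the set 2 columns (median miss 25.1% to 25.3%). Nor were they rebuilt from the set 1 columns (14.3%) or from all 6 control columns (13.1%). In those tables the log2 changes of 84 to 88 of 102 members lay nearer the changes computed here against set 1 than those against set 2. Each allele has 3 libraries except WT18, which has 4. Of those, 2 are new libraries of the h+ strain, and 2 are re-analysed from an earlier h- ade6 ura4-D18 leu1-32 strain prepared with another kit. T4A is also re-analysed from an earlier series, and its labels give no mating type or marker. All cells grew in YES medium at 30 °C in vegetative growth, and each group other than WT18 is 1 strain. Nothing in the labels ties the replicates to separate cultures, so p-values measure the spread between these libraries, which may be technical.

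The 31 libraries hold 15.2 M to 35.8 M counts. Levels are CPM, the reads of a gene in each 1 M reads, after scaling all 31 libraries together, and the differences are log2 fold changes from edgeR fits on the libraries of each comparison. A gene rose or fell at an adjusted p below 0.05, and the 2-fold rule adds a 2-fold change. A few libraries stood apart. The WT18 libraries had composition factors of 1.33 to 1.41, against 0.79 to 1.10 in the other 27. In the median over the 103 genes of the log2 level against the mean of the 6 control libraries, replicate 4 of control set 2 lay at -0.57, S2A-S7A replicate 1 at -0.78 and WT18 at 1.01 to 1.48. The rpb1 transcript itself averaged 163 CPM in control set 1 and 479 CPM in control set 2. The 5 stress marker genes summed to 1393 to 1627 CPM in the controls, 5925 to 6200 CPM in Y1F, 3247 to 4590 CPM in T4A, 1059 to 3912 CPM in WT18 and 1640 to 2910 CPM in the other alleles. The 5 markers of sexual differentiation or starvation summed to 452 to 512 CPM in control set 1, 85.5 to 95.8 CPM in control set 2 and 32.0 to 164 CPM in the alleles. The part of either list in the results below was not tested.

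**Figure D1:**
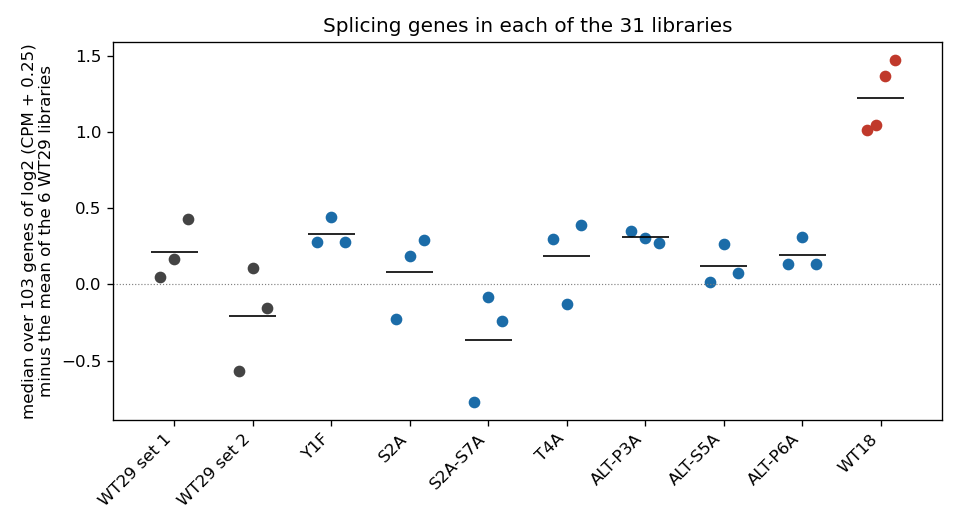
Each point is 1 library: the median over the 103 genes of log2 (CPM + 0.25) minus the mean of the 6 WT29 libraries, with group means as bars. The 4 WT18 points lie at 1.01 to 1.48, above all other libraries, and the lowest point is S2A-S7A replicate 1 at -0.78.

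The members differed widely in level. Per kilobase of exon, the mean of the 6 control libraries was highest for srp2 (SPAC16.02c), an SR protein gene, at 423.8 CPM per kb, then mug161 (SPAC1F3.09), a CwfJ family gene, at 111.6, and SPAC1705.02 at 88.2. The lowest were cwf20 at 2.60, SPAPB8E5.10 at 1.33 and mug93 at 0.149 CPM per kb. Of the 103 genes, 59 hold an intron, or 57.3%, against 48.3% of the 5107 coding genes. All but mug93 passed the filter on low counts in every comparison, and mug93 passed in 5 of the 12 comparisons.

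Cutting the CTD to 18 heptads was accompanied by the largest shift. Of 102 members tested in WT18, 85 were higher than in control set 2 and 5 were lower, against background shares of 35.8% and 33.8% of all 6149 genes. With the 2-fold rule 74 were higher and 1 lower, where 24.8% and 11.7% of all genes were. The median log2 change was 1.51, against 0.05 over all genes tested. In 65 of the 103 members every WT18 library lay above all other 27 libraries, and in 2 all WT18 libraries lay below, where 17.3% and 16.2% of all genes with a read did.

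The rises ran through every class of splicing protein. Of the 20 Prp19 complex and Cwf genes 19 rose, with a median of 1.81, and the other one, mug161, fell. Of 39 further splicing factors 35 rose, with a median of 1.62. Of the 9 U1 genes 7 rose (median 1.41) and 2 fell, usp108 and usp109; 12 of 17 U4/U6 and U5 genes (median 1.35) and 9 of 12 U2 genes (median 0.92) rose. Among the endonuclease subunits 3 of 4 rose, with sen2, a catalytic subunit, at -0.05.

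The largest rise against set 2 was in cwf15 (SPBC337.06c), a Prp19 complex gene. It measured 37.5, 34.6, 52.0 and 59.8 CPM in WT18, 5.31, 9.92 and 7.99 CPM in control set 2, and 15.3, 14.3 and 19.3 CPM in control set 1. Every WT18 library was above all 6 controls. The log2 change was 2.59 ± 0.28 (SE) against set 2 (edgeR adjusted p = 0.00025) and 1.46 ± 0.21 against set 1 (adjusted p = 0.00086). The splicing factor gene cwf16 (SPAC9.13c) measured 60.7, 56.4, 41.4 and 57.3 CPM, against 5.87, 13.1 and 9.36 CPM in set 2 and 12.7, 14.2 and 21.7 CPM in set 1. Again no library of a control reached a WT18 library, with a change of 2.55 ± 0.30 against set 2 and 1.71 ± 0.23 against set 1. cwf25 (SPBC146.05c), annotated as a Cdc5-complex gene, rose by 2.48 ± 0.31 against set 2 and 1.42 ± 0.21 against set 1. The order differed by control set, and against set 1 SPAC6G10.10c rose most, by 2.00 ± 0.36.

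Those that fell against set 2 were srp2, mug161, cxr1, usp108 and usp109. srp2 measured 278, 256, 253 and 229 CPM in WT18, 540, 502 and 490 CPM in control set 2, and 960, 950 and 949 CPM in control set 1. WT18 lay below both control sets, which did not overlap with each other. The change was -0.97 ± 0.11 against set 2 (adjusted p = 0.00027) and -1.94 ± 0.11 against set 1. cxr1 (SPBC23E6.01c) fell by 1.15, mug161 by 0.87 and usp108 (SPAC23D3.08), a U1-associated gene, by 0.56 on the log2 scale against set 2.

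Coding genes in WT18 differed with their level, and the members in the same bands lay apart from it. Among 4 equal bands of mean level, the median change of coding genes against set 2 was 0.77 and 0.50 in the lower bands, and -0.28 and -0.66 in the upper ones. The 42 members in the lowest band had a median of 1.53, the 37 in the next 1.57, and the 21 in the next 1.41. In that last band 15 members rose and 2 fell, where 30.4% of coding genes rose and 46.4% fell. Both members in the top band fell.

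**Figure D2:**
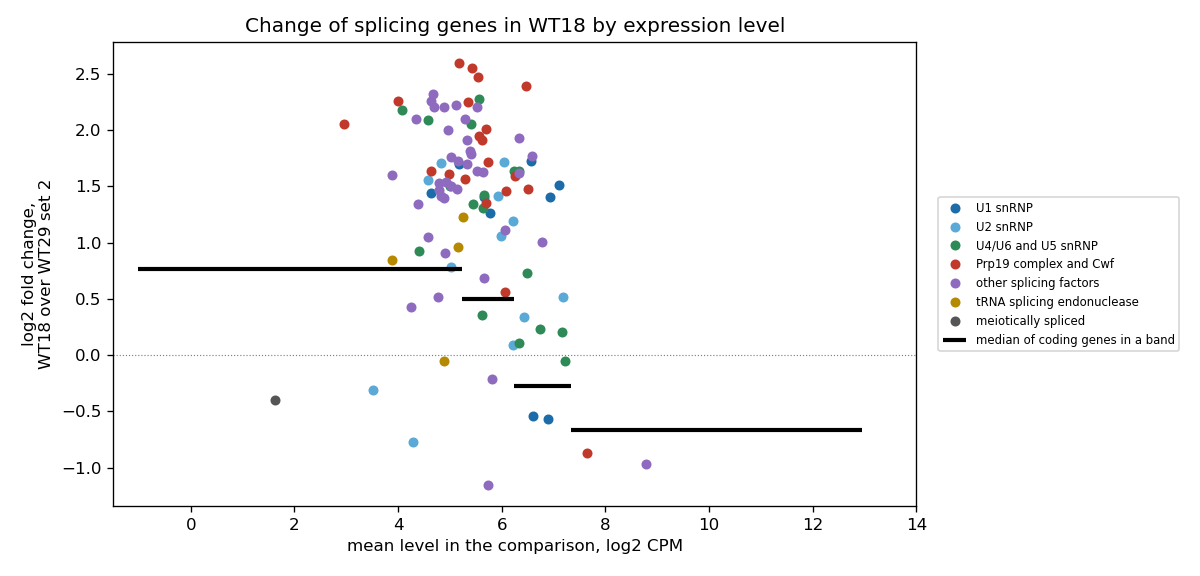
Each point is 1 of the 102 members tested, with its mean level (log2 CPM) and its log2 change in WT18 against control set 2; black bars are the medians of coding genes in 4 equal bands of level. The medians of the members in the lower 3 bands are 1.53, 1.57 and 1.41, above the bars, and the 2 most abundant members are below 0.

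The count of risers in WT18 held under each reference tried. Against control set 1 it was 78, with 6 lower and a median of 0.99, where 30.6% and 29.0% of all genes were called, and 77 members rose against both sets, where 27.3% of all genes did. Against both sets 4 members fell, srp2, mug161, usp108 and cxr1, where 24.6% of all genes fell. The authors' deposited table for WT18 gives 81 members higher and 4 lower, where 33.5% and 31% of all genes are. Its 4 lower members include 3 of those named, but not usp108, which it puts at -0.096 (DESeq2 adjusted p = 0.69). The 2 new libraries alone, which share strain background and kit with the control, gave 89 higher and 8 lower (median 1.33), where 42.5% and 38.4% of all genes were. The 2 earlier libraries alone gave 87 and 3 (median 1.81), where 39.5% and 33.1% were. Those 2 pairs differ in mating type, markers and kit, which cannot be told apart. In a comparison added after the data were seen, WT18 was also higher than ALT-P3A, the allele with the next most members higher than its own control set, in 81 members and lower in 5, where 32.8% and 32.0% of all genes were (median 0.91).

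Splicing genes outside the name rule were called at a share nearer the background. Of 23 tested coding genes among the Sm and Lsm proteins, cap-binding, debranching, SMN, kinase and cap trimethylation genes, 10 rose and 2 fell in WT18, where 35.8% and 33.8% of all genes did, with a median of 0.41. The debranching enzyme gene dbr1, whose product opens excised intron lariats, averaged 64.5 CPM against 16.9 CPM in set 2, a change of 1.95 ± 0.30. Both SMN complex genes rose, by 2.00 (smn1) and 1.01 (yip11), and the kinase gene prp4 by 2.13. The 7 Sm genes had a median of 0.00, with 2 higher. Among Lsm genes lsm1 rose by 1.25 and lsm5 by 1.05 while lsm2 fell by 1.09.

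The double mutant S2A-S7A went the other way against its own control. Of 102 members tested 9 were higher and 58 lower than in control set 1, against background shares of 29.4% and 31.1%, and 21 were lower by the 2-fold rule (background 9.61%). By that rule 0 members were higher (background 5.89%), where 10 were higher at an unadjusted p below 0.05. The median change was -0.62, against -0.03 over all genes. Of the 20 Prp19 complex and Cwf genes 16 fell (median -0.84); 23 of 39 further factors fell (median -0.74), 6 of 12 U2 genes and 5 of 9 U1 genes.

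The DnaJ protein gene spf31 (SPBC1734.05c) had the largest fall. It measured 1.78, 5.82 and 4.99 CPM in S2A-S7A, 12.9, 13.0 and 20.2 CPM in control set 1 and 5.61, 12.7 and 9.36 CPM in control set 2. The S2A-S7A libraries lay below set 1 and overlapped set 2. The change was -1.88 ± 0.38 against set 1 (edgeR adjusted p = 0.003) and -1.13 ± 0.37 against set 2 (adjusted p = 0.024). cwf4 (SPBC31F10.11c), a Prp19 complex gene, measured 12.1, 19.5 and 18.5 CPM, against 28.6, 32.2 and 43.8 CPM in set 1 and 23.0, 35.4 and 31.1 CPM in set 2. Here the libraries lay below all 6 controls, with a change of -1.06 ± 0.22 against set 1. prp1 (SPBC6B1.07), a tri-snRNP subunit gene, measured 11.9, 18.0 and 17.1 CPM, below all 6 controls at 22.2 to 44.9 CPM, a change of -1.16 ± 0.21.

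Much of the S2A-S7A fall depended on the control set. Against control set 2 the counts were 11 higher and 16 lower, with a median of -0.14. The 16 lower were also lower against set 1, where 13.5% of all genes fell against both sets, and the 3 that rose against both (16.6% of all genes) were SPAC22E12.02, aar2 and SPBP4H10.16c. The authors' deposited table, built on set 1, gives 66 lower and 11 higher, where 30.7% and 28.3% of all genes are. The markers of sexual differentiation or starvation summed to 108 to 164 CPM in S2A-S7A against 452 to 512 CPM in set 1, and their part was not tested. S2A-S7A replicate 1 was the lowest library of the series, and without it 57 members fell but 11, not 21, by the 2-fold rule. The rise of msl1 (SPBC8D2.09c), a U2 gene, of 0.67 against set 1 was -0.04 against set 2.

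Compared directly with S2A, the double mutant had 32 members lower and 5 higher, where 16.9% and 17.5% of all genes were, with a median of -0.49. Whether the replicate numbers pair these libraries is not given in the sources used here. With the number as a block 62 were lower and 5 higher. The lower count was 7 without S2A replicate 3, 12 without S2A replicate 2 or S2A-S7A replicate 1, and 13 without S2A-S7A replicate 3. frg1 (SPBP23A10.12) had the largest difference, at 38.2, 54.6 and 42.8 CPM in S2A, 12.4, 18.2 and 16.2 CPM in S2A-S7A and 14.1, 15.1 and 20.9 CPM in control set 1. All S2A libraries were above all 6 controls, by 1.42 ± 0.19 against set 1 (edgeR adjusted p = 0.00029) and 1.78 ± 0.26 against set 2. The double mutant was 1.51 ± 0.20 below S2A (edgeR adjusted p = 0.00076). frg1 also rose in WT18, by 1.48 against set 1 and 1.92 against set 2, and in Y1F, by 0.48 and 0.87.

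In S2A itself few members moved. Of 103 tested 8 rose and 13 fell, against backgrounds of 18.2% and 17.5%, with a median of -0.12. Besides frg1, saf4 (SPBC18H10.10c), annotated as a splicing associated factor, rose by 1.00 ± 0.16, at 25.2, 22.1 and 25.4 CPM against 10.97, 11.9 and 13.0 CPM in control set 1. Those groups did not overlap, nor did control set 2 at 12.9 to 13.4 CPM reach S2A. mug161 fell by 0.70 ± 0.09, with all S2A libraries at 119 to 123 CPM and the controls at 177 to 238 CPM. Against both control sets 6 members rose and 2 fell, where 11.0% and 9.68% of all genes did.

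In Y1F 13 members rose and 17 fell of 103, against 23.6% and 27.6% of all genes, and the median was 0.06. bpb1 (SPCC962.06c), the branch point binding protein gene, fell most: it measured 65.0, 66.9 and 62.5 CPM, against 138, 131 and 132 CPM in control set 1, a change of -1.09 ± 0.07. Control set 2 measured 62.7, 56.6 and 55.1 CPM, so the Y1F libraries overlapped it and the change against it was 0.13. Only members that differ from both sets hold apart from that choice: 12 rose and 6 fell in Y1F, where 14.8% and 15.8% of all genes did. usp108 was among the 6, at 76.3, 72.7 and 76.5 CPM against 97.1 to 136 CPM in the 6 controls, a change of -0.62 ± 0.09. sen2 fell by 0.58 ± 0.12. mug93, at 1.27, 1.26 and 1.80 CPM against 0.17 to 0.19 CPM in control set 1, rose by 2.91 ± 0.36. In S2A it rose by 2.074 against set 1 and 2.095 against set 2. The authors' deposited tables put mug93 at 2.139 in S2A-S7A, 2.33 in ALT-P3A, 2.382 in ALT-S5A and 2.842 in ALT-P6A. They put it at 2.333 in WT18 and -0.547 in T4A, which did not pass (DESeq2 adjusted p = 0.057 and 0.73). The counts of mug93 are few.

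**Figure D3:**
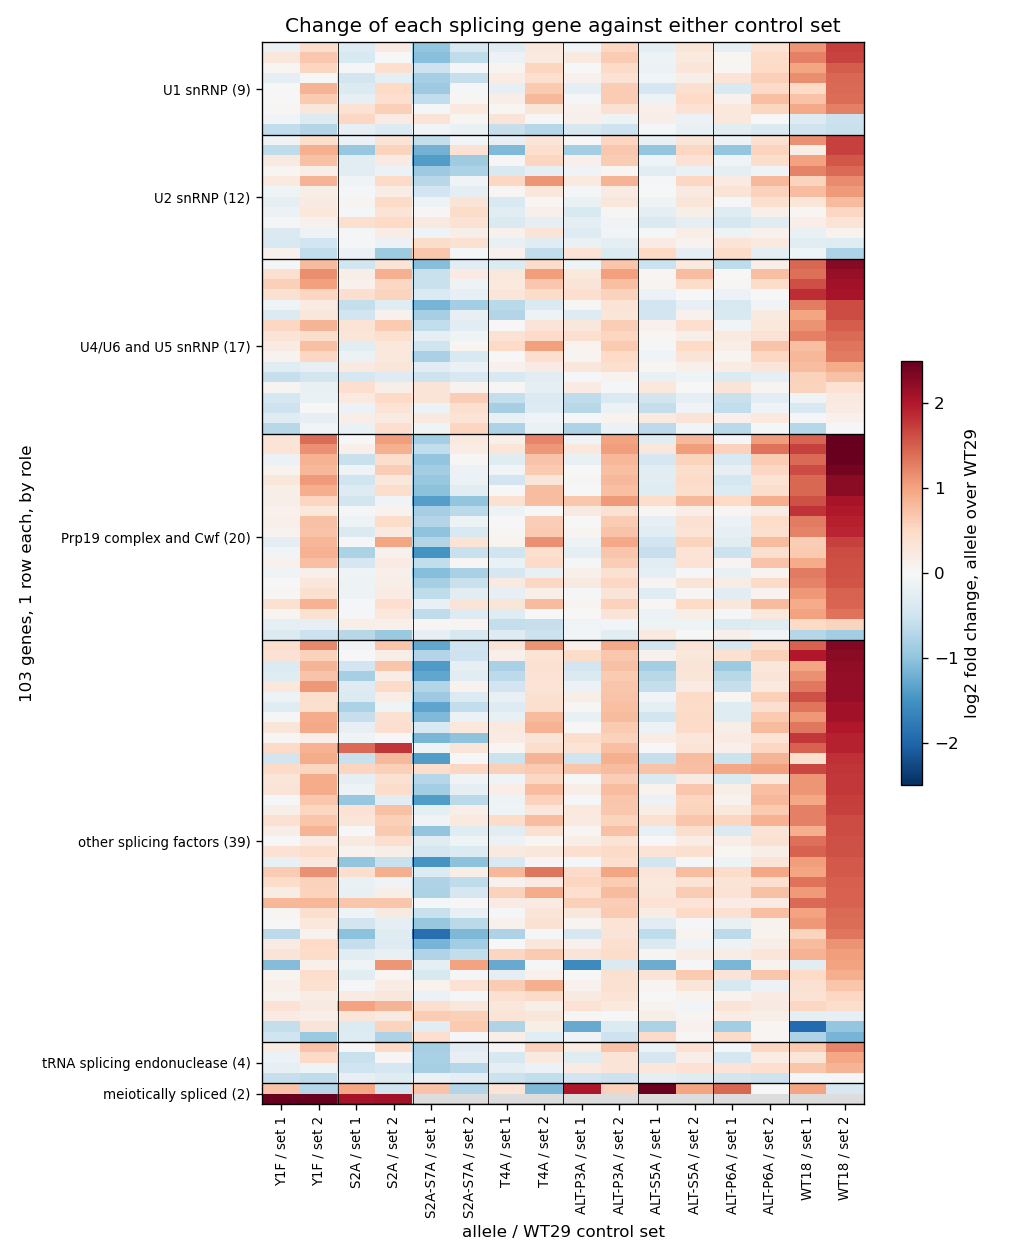
Log2 changes of the 103 members (rows, by role) in each allele against control set 1 and control set 2 (columns); red is higher in the allele, blue lower, grey not tested. The 2 WT18 columns are red in nearly all rows, and in the other alleles the column against set 2 is redder than that against set 1.

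The controls themselves differed. Control set 2 had 27 members lower and 4 higher than set 1 of 102 tested, against backgrounds of 19.5% and 24.5%, with a median of -0.38. Of the Prp19 complex and Cwf genes 6 of 20 were lower (median -0.60). srp2 was 0.90 ± 0.07 and bpb1 1.20 ± 0.08 lower on the log2 scale in set 2, uap2 (SPBC1289.02c), a U2-associated gene, 1.51 lower, and msl1 0.73 higher. The libraries of set 2 ranged widely for many members: without its replicate 5 the count lower was 49, and without its replicate 6 it was 10. The markers of sexual differentiation or starvation, at 452 to 512 CPM in set 1 and 85.5 to 95.8 CPM in set 2, moved with the sets, and their part was not tested. What else set the sets apart is not given in the sources used here.

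The 4 other alleles compared with set 2 each had more members higher than lower against it. In ALT-P3A 52 rose and 7 fell (backgrounds 21.8% and 21.0%, median 0.55); in ALT-P6A 28 and 5 (22.1% and 23.3%, median 0.37); in T4A 20 and 8 (18.4% and 22.4%, median 0.33); in ALT-S5A 17 and 0 (14.9% and 18.1%, median 0.31), with 0 lower also by DESeq2 and 1 lower at an unadjusted p below 0.05. Against set 1 the same libraries gave 16 and 13, 15 and 23, 8 and 15, and 6 and 23. The authors' deposited tables give 18 and 16, 20 and 24, 10 and 23, and 13 and 26, where 24.1% to 25.3% of all genes are higher and 25.9% to 28.2% lower. The direction of the list thus turned with the reference in ALT-P6A, T4A and ALT-S5A. In ALT-P3A more members were higher than lower under each reference, but by far fewer outside set 2. The ALT-P3A count was 13 without its replicate 1 or without replicate 6 of set 2, and 77 without replicate 5 of set 2.

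Counts that passed against both sets were small. They were 10 higher and 5 lower in ALT-P3A, where 7.80% and 9.08% of all genes did, 9 and 5 in ALT-P6A (10.3% and 10.6%), 7 and 5 in T4A (9.79% and 10.8%), and 3 and 0 in ALT-S5A (6.66% and 6.69%). usp108, sen2 and cwf10 (SPBC215.12), the U5 GTPase gene, fell against both sets in T4A, ALT-P3A and ALT-P6A. The share of all genes that fell in these alleles together is not given here. usp108 measured 77.8, 79.2 and 76.5 CPM in T4A, 85.8, 84.0 and 85.5 CPM in ALT-P3A and 93.8, 91.4 and 99.1 CPM in ALT-P6A, where the 6 controls ran from 97.1 to 136 CPM. The T4A and ALT-P3A libraries lay below every control, and 1 ALT-P6A library reached into their range. The change of usp108 against set 2 was -0.70 in T4A, -0.51 in ALT-P3A and -0.36 in ALT-P6A. The authors' deposited tables put the change of usp108 at -0.20 in T4A, -0.06 in ALT-P3A and 0.10 in ALT-P6A. In the same order they put sen2 at -0.16, -0.142 and -0.125, and cwf10 at -0.056, -0.124 and -0.053. Of these only the usp108 change in T4A passed (DESeq2 adjusted p = 0.0031). Directly compared, ALT-P3A had 4 members higher and 8 lower than ALT-P6A (backgrounds 13.1% and 15.7%), among them cxr1 by -0.57, bpb1 by -0.46 and srp2 by -0.40.

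One member rose in all 8 alleles against both control sets: SPAC22E12.02, annotated as a splicing factor that binds WW domains, of the Rbm42 kind. The share of all genes that did so is not given here, and the 8 alleles share the same 6 control libraries. It measured 13.1 to 18.0 CPM in the 6 controls, and its allele libraries ran from 17.9 CPM in S2A-S7A replicate 1 to 69.1 CPM in WT18 replicate 4. Among the other 7 alleles the libraries of ALT-P6A were the highest, at 31.6, 29.4 and 29.3 CPM. Only S2A-S7A replicate 1 reached into the range of the controls. With set 1 as reference for Y1F, S2A and S2A-S7A, and set 2 for the rest, the changes varied in size. The smallest were 0.45 ± 0.14 in S2A-S7A and 0.47 ± 0.11 in Y1F. The largest were 1.04 ± 0.15 in ALT-P6A and 1.79 ± 0.25 in WT18. The rise in S2A, S2A-S7A and T4A lost the threshold when single libraries were left out, with adjusted p of 0.058 to 0.097, 0.051 to 0.087 and 0.092 to 0.13 there. The ALT-P6A libraries did not overlap those of any other substitution allele. In the direct comparison, ALT-P3A against ALT-P6A was at -0.274 ± 0.131, which did not pass the test (edgeR adjusted p = 0.14).

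**Figure D4:**
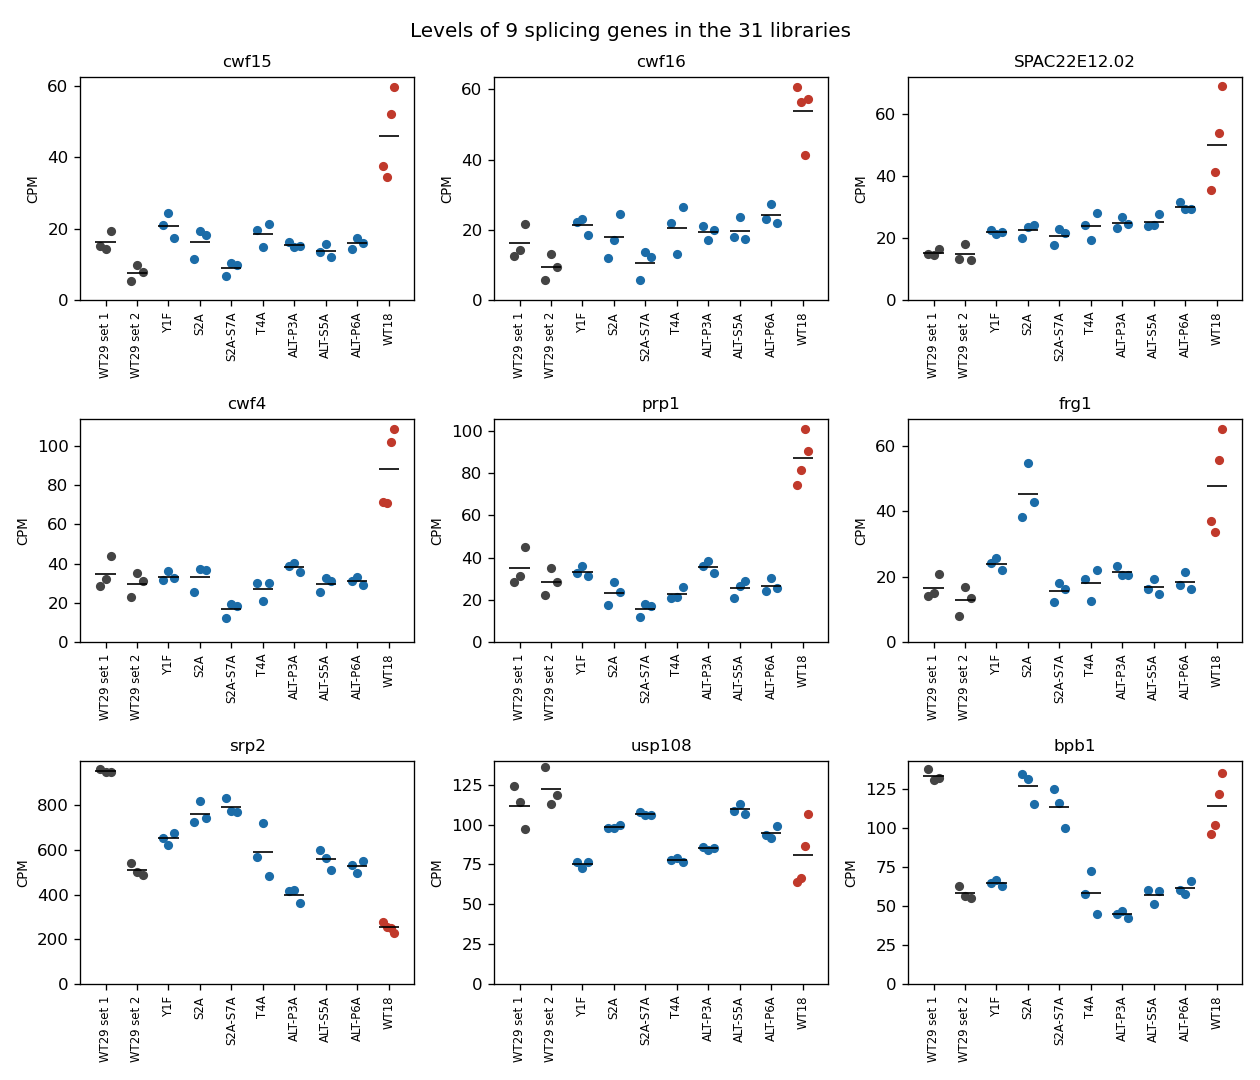
CPM of 9 members in each of the 31 libraries (points) with group means (bars), controls in dark grey and WT18 in red. cwf15, cwf16, cwf4 and prp1 are highest in WT18, frg1 is high in S2A and WT18, srp2 is lowest in WT18 and bpb1 differs between the 2 control sets.

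Antisense RNAs lie opposite some members, and the annotation names 16 of them. How the counting treated strand is not given in the sources used here, so reads of a gene and its antisense RNA cannot be told apart. cwf28-antisense-1, opposite the splicing factor gene cwf28 (SPBC3B9.02c), was at 2.88 to 5.46 CPM in the 6 controls. It was at 50.6, 45.4 and 51.8 CPM in Y1F, 45.1, 39.4 and 44.2 CPM in S2A-S7A, 30.1, 24.0 and 26.9 CPM in S2A and 16.6 to 29.2 CPM in T4A and the ALT alleles. All libraries of these alleles were above all controls. The change was 3.89 in Y1F and 3.75 ± 0.15 in S2A-S7A against set 1, and 1.78 in ALT-S5A, 1.89 in ALT-P6A, 1.90 in ALT-P3A and 2.20 in T4A against set 2. In WT18 the new libraries were at 24.98 and 21.2 CPM and the earlier ones at 7.58 and 5.999 CPM, a change of 1.64 ± 0.55 (adjusted p = 0.027) that was lost without any one of WT18 replicates 1 and 2 or a set 2 replicate.

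The antisense RNA of prp1 was highest in S2A and S2A-S7A, and that of cwf4 was above the controls in more alleles. prp1-antisense-1 was at 33.5, 30.3 and 41.2 CPM in S2A and 18.0, 17.1 and 15.1 CPM in S2A-S7A, and at 0.85 to 4.21 CPM in all other libraries. cwf4-antisense-1 was at 14.95 to 25.8 CPM in Y1F, S2A and S2A-S7A, 9.63 to 11.8 CPM in T4A and 2.22 to 4.94 CPM in the controls. In WT18 it was at 9.94, 24.1, 2.07 and 1.44 CPM. Against set 2 it rose by 0.75 in ALT-S5A (edgeR adjusted p = 0.013) and 0.58 in ALT-P3A (adjusted p = 0.039). In ALT-P6A it was at 0.47, which did not pass (edgeR adjusted p = 0.072). In S2A-S7A the genes opposite fell against set 1, by 1.16 (prp1), 1.06 (cwf4) and 1.01 (cwf28). The falls of prp1 and cwf4 also passed against set 2, and cwf28 was at -0.38 there (edgeR adjusted p = 0.33). In S2A prp1 fell by 0.60 against set 1 (adjusted p = 0.047) and was at -0.31 against set 2 (adjusted p = 0.28). cwf4 and cwf28 were at -0.10 and -0.36 in S2A against set 1, and at -0.11 and 0.09 in Y1F, none of which passed the test. Against set 2 cwf28 rose by 0.71 in Y1F (adjusted p = 0.025).

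Over the antisense RNAs of members, 8 of 16 rose against both control sets in S2A and 8 of 16 in S2A-S7A, where 37.5% and 32.5% of all annotated antisense RNAs tested did, and 6 in Y1F (20.1%). The numbers were 4 in T4A (14.1%), ALT-P3A (20.7%) and ALT-S5A (18.7%), and 1 in ALT-P6A (10.2%) and WT18 (13.9%). Those that fell against both sets were 2 in Y1F, S2A and S2A-S7A, where 13.9%, 8.14% and 11.3% of all antisense RNAs did, and 1 in WT18 (5.34%). No member's antisense RNA fell against both sets by edgeR in T4A (11.1%), ALT-P3A (3.17%), ALT-S5A (8.00%) or ALT-P6A (11.2%). srp2-antisense-1 differed between the control sets: it was at 0.60, 0.63 and 0.47 CPM in set 1 and 11.2, 13.0 and 9.40 CPM in set 2. The ALT alleles ran from 6.01 to 20.2 CPM and the other alleles from 0.94 to 2.80 CPM, so that its change in Y1F was 1.56 against set 1 and -2.71 against set 2.

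**Figure D5:**
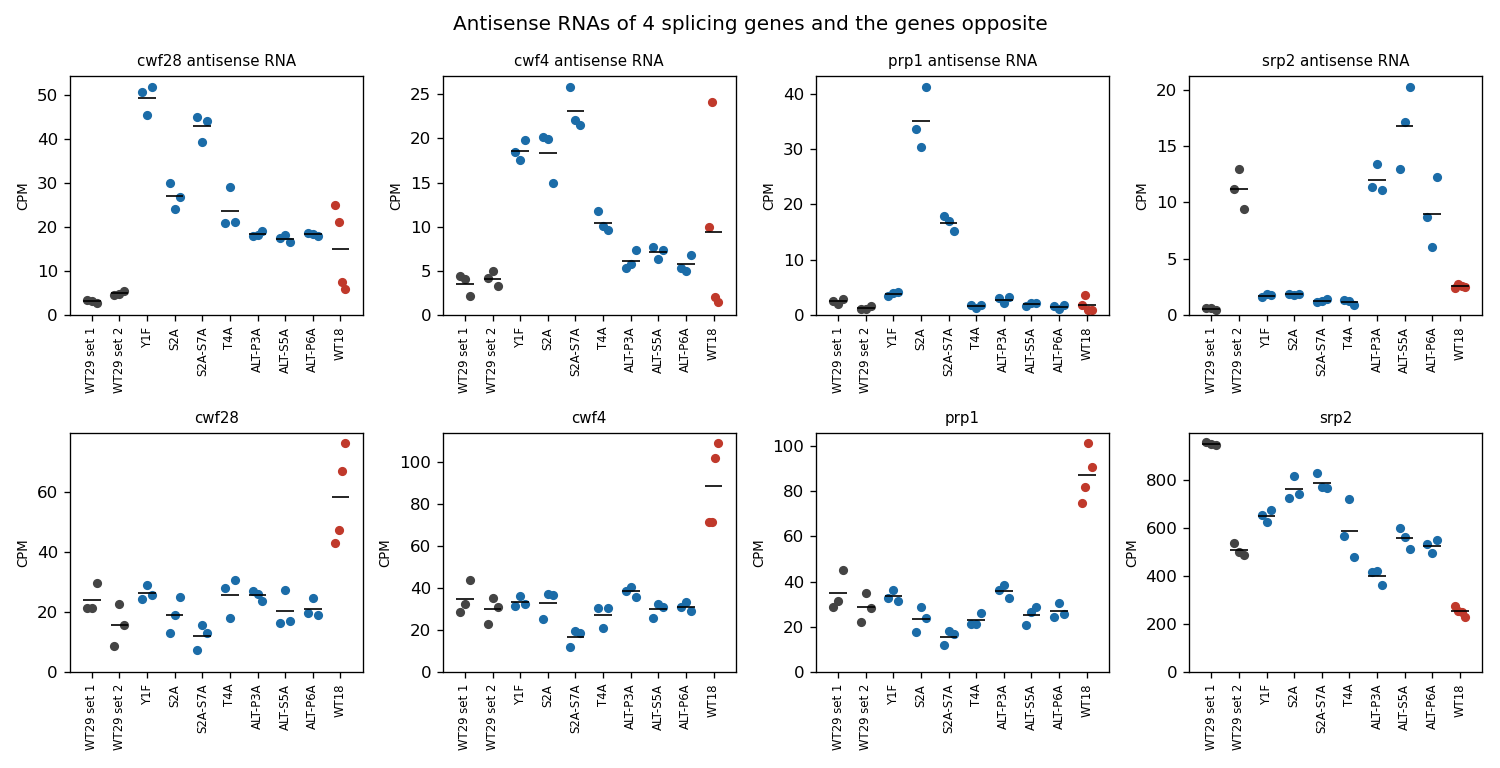
CPM of 4 antisense RNAs (upper row) and the genes opposite (lower row) in each of the 31 libraries, with group means as bars. The cwf28 antisense RNA is higher in every library of the 7 substitution alleles than in the controls, and the srp2 antisense RNA is high in control set 2 and the ALT alleles.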

How the data were processed

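Polyadenylated RNA of 31 libraries was analysed; the 3 control columns numbered 4, 5 and 6 were taken as control set 2 by elimination. Counts per gene were deposited by the authors, who per the submitters' processing notes used HISAT2 2.1.0, SAMtools, HTSeq 0.10.0 and assembly ASM294v2. The authors' deposited tables give log2 fold changes, p-values by DESeq2 and mean signals (counts over size factors). Their means were rebuilt from the count columns except those of the second control.

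Each comparison had its own fit in edgeR 4.0.16 under R 4.3.3, with the filterByExpr filter, TMM scaling and the quasi-likelihood test, and p-values were adjusted over all genes tested by the Benjamini-Hochberg method; DESeq2 1.42.0 was an alternative. Counts of members called against both control sets, and the comparison of WT18 with ALT-P3A, were added after seeing the data. SE is the log2 change over the square root of F. The script was tested on simulated data. Members, lists and named genes (largest changes whose groups do not overlap, wide or 2-fold responses, extreme levels, antisense RNAs) were chosen with earlier results of these data known. Some names, such as usp108, cwf10, dbr1 and prp4, were chosen after their values were seen. Gene models came from assembly ASM294v3, so no coordinates or sequences are given. Deviations of same-numbered S2A and S2A-S7A libraries had correlations of 0.55, 0.16 and 0.28. Against control set 1 they were 0.39, -0.34 and 0.49 for S2A, and 0.42, -0.24 and 0.14 for S2A-S7A. These values do not settle whether the numbers pair libraries, so the replicate block is given only as an alternative.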

Additional observations from a re-analysis of the deposited data

Results flagged for a closer look

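Among the 4 WT18 libraries, SPAC222.18, an Srp1 family gene, had 1 library at 49.8 CPM far above the other 3 at 35.8 to 36.9 CPM, and sen34, a tRNA endonuclease subunit gene, had 1 at 50.6 CPM above 37.7 to 39.3 CPM. Chance marks about 1 in 20 such groups, and 103 members were examined.

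In 3 members the new and the earlier WT18 pairs lay on opposite sides of control set 2; this difference was not tested. SPAC1705.02 averaged 70.5 CPM in the new pair and 26.4 CPM in the earlier pair, with the set at 29.9 to 32.6 CPM. aar2, a U5-associated gene, averaged 78.4 and 56.2 CPM, with the set at 61.2 to 69.1 CPM. spp42, the U5 core gene, averaged 138 and 101 CPM, with the set at 121 to 134 CPM.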

How the results depend on the processing

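Of the 24 counts of members, those of WT18 higher than control set 2 and ALT-P3A stayed within 1.5 times under every alternative run, and most others moved under some. With the other control set, higher and lower counts were 58 and 9 in Y1F, 24 and 4 in S2A, 8 and 15 in T4A, 16 and 13 in ALT-P3A, 6 and 23 in ALT-S5A and 15 and 23 in ALT-P6A, and 16 lower in S2A-S7A. With all libraries in 1 fit they were 6 higher in Y1F, 31 higher in T4A, 32 higher in ALT-P3A, 43 lower in set 2 than set 1, 3 higher in S2A-S7A than S2A, and 0 higher and 3 lower in ALT-P3A than ALT-P6A. With the DESeq2 Wald test 31 were higher in T4A and 45 lower in set 2. WT18 members lower than set 2 were 8 with new libraries only, 3 with earlier libraries only, and 11 with new libraries against set 1, a setting chosen after seeing the data; 9 were lower than ALT-P3A with new libraries only. With the replicate block 17 rose and 29 fell in S2A, 62 fell from S2A to S2A-S7A, and 23 were higher in ALT-P3A than ALT-P6A, where pair correlations were -0.03, -0.11 and -0.13; it moved no other count by over 1.5 times. No paired analysis was possible against set 2 because its replicate numbers are not shared with the alleles. The cause of these moves was not tested.

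Leaving out 1 library at a time, the counts higher ranged from 4 to 39 in Y1F, 4 to 9 in S2A, 5 to 8 in S2A-S7A, 10 to 40 in T4A, 13 to 77 in ALT-P3A, 7 to 42 in ALT-S5A, 19 to 60 in ALT-P6A, 81 to 86 in WT18, 3 to 5 in set 2, 3 to 5 in S2A-S7A against S2A, 0 to 19 in ALT-P3A against ALT-P6A and 72 to 87 in WT18 against ALT-P3A. The counts lower ranged from 13 to 18, 6 to 17, 43 to 61, 3 to 9, 4 to 8, 0 to 0, 3 to 6, 3 to 7, 10 to 49, 7 to 48, 4 to 10 and 3 to 7 in the same order.

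Over all members, 6 in WT18 and 26 to 54 in each other allele had opposite signs against the 2 control sets, of which 0 to 3 an allele passed the test both times. Among the named genes 7 results of 4 genes changed sign with the other control set: bpb1 (0.13) and spf31 (0.08) in Y1F, msl1 in S2A-S7A (-0.04) and T4A (0.11), and cwf15 in ALT-P3A (-0.09), ALT-S5A (-0.26) and ALT-P6A (-0.05). Depth limits mug93, which has under 2 CPM in all libraries.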
